A study of Homo sapiens with 4 samples.

Results

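The genes of 10 epithelial receptor tyrosine kinases were followed across 4 RNA sequencing libraries of human colorectal cancer cells: MET, MST1R, EGFR, ERBB2, ERBB3, IGF1R, INSR, EPHA2, DDR1 and FGFR4. They were taken by gene symbol from the 60658 gene rows of the series, and each symbol matched 1 row. HT29 and LIM1215 are established colorectal cancer lines. Each line gave 1 library from cells with a negative control siRNA (NC) and 1 from cells with an siRNA against TMEM161A (si2), a gene for a transmembrane protein whose part in tumor growth the study examined. An siRNA is a short RNA duplex that directs the cleavage of a matching mRNA, and the control cells had received an siRNA too. With 1 library per group, no group has a replicate, and every ratio below is a comparison of 2 libraries. A siRNA effect averaged over both lines could be tested with line as a block, on 1 residual degree of freedom, and was not tested here because MET was picked from these contrasts. MET was chosen by its FPKM, which was known to be higher with si2 in both lines, and the other 9 were added as epithelial receptors to set beside it. The values from these contrasts are therefore a description. The labels give 1 siRNA per line, so effects of that siRNA on other transcripts cannot be told apart from those of lower TMEM161A.

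Receptor tyrosine kinases span the cell membrane, bind a ligand outside and phosphorylate tyrosines inside, which recruits adaptors that feed the RAS-ERK and PI3K-AKT pathways. In the gut they carry growth, survival and migration signals from neighbouring cells to the epithelium. MET is the receptor of hepatocyte growth factor (HGF) and is a known driver of invasive growth and of resistance to EGFR antibodies in colorectal cancer. MST1R, also called RON, is its closest relative. EGFR, ERBB2 and ERBB3 pair with each other, IGF1R and INSR are the paired receptors of insulin-like growth factors and insulin, EPHA2 binds ephrins, DDR1 binds collagen, and FGFR4 binds fibroblast growth factors such as FGF19.

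Promoter sequence is shown for 4 members that behaved differently: MET, the member that passed 2-fold in both lines with si2, EGFR, which was higher with si2 mainly in HT29, IGF1R, which was higher with si2 in HT29 and lower in LIM1215, and INSR, the close relative of IGF1R, which was slightly lower with si2 in both. Each run is the 250 bases before the RefSeq gene start (GRCh38.p14), 5′ to 3′ on the strand of the gene, and capitals mark the GC box motif GGGCGG on either strand, the site class bound by SP1.
MET, chr7:116671946-116672195, plus strand: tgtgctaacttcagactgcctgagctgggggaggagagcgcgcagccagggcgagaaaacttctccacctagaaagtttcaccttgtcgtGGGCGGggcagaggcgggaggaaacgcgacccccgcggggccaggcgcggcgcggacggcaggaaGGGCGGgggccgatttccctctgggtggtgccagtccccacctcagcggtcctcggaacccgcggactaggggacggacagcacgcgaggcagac
EGFR, chr7:55018767-55019016, plus strand: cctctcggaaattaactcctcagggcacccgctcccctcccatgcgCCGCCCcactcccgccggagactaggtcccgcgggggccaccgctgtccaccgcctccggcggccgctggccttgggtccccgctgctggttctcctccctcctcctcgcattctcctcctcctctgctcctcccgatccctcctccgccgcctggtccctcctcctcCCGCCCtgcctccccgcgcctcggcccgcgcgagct
IGF1R, chr15:98648289-98648538, plus strand: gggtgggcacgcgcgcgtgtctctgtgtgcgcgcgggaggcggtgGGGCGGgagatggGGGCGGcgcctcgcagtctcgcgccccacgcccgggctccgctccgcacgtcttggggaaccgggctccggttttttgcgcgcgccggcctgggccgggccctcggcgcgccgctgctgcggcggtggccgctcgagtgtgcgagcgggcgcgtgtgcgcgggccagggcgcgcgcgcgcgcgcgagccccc
INSR, chr19:7294415-7294664, minus strand: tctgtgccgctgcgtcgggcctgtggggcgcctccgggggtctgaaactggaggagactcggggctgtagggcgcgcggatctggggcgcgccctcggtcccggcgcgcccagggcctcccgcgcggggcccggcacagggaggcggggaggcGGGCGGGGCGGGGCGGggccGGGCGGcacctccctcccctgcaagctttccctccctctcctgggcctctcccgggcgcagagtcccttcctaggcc

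All 4 windows were rich in G and C, with 68.4% for MET, 73.6% for EGFR, 81.2% for IGF1R and 78.4% for INSR, against a median of 58.0% over 34943 RefSeq promoter windows of the same length. MET, EGFR and IGF1R each held 2 GC boxes and INSR held 4, some of them overlapping. The motif occurred in 42.5% of all windows. Neither the AP-1 motif TGANTCA (6.59% of all windows, either strand) nor the E-box CACGTG (6.32%) was in the 4 windows. A second RefSeq start of EGFR, inside the gene, had 2 AP-1 motifs (TGAGTCA and TGACTCA) and no GC box. ERBB2 had 1 match to TGANTCA, with T at the open base (TGATTCA). Of 8 DDR1 windows, 1 had an AP-1 motif, and the second FGFR4 window had 1 E-box. Of the 10 members, 9 matched the promoter table, and ERBB3 is named only. The first FGFR4 window held 7 GC boxes.

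The values are FPKM as deposited, that is, fragments per kilobase of gene, scaled for the size of the library. By the steps between low values, 1 unit of FPKM corresponded to between 18.06 and 21.54 fragments for each kilobase. Ratios are given as log2 of FPKM plus a pseudocount of 1, and genes were called past 2-fold, where this log2 value reached 1 or −1. Folds are ratios of FPKM and carry 95% counting intervals (exact Clopper-Pearson on estimated fragments), which cover counting error only and not the variation between cultures. The FPKM of TMEM161A itself was 42.6 in HT29 NC, 4.64 in HT29 si2, 39.1 in LIM1215 NC and 7.61 in LIM1215 si2, so the targeted mRNA was lower in both libraries labelled si2. Of 10 epithelial and colonic markers, all had an FPKM of at least 1 in LIM1215, and 4 (VIL1, CDX1, KRT20 and LGALS4) were under 1 in both HT29 libraries, while EPCAM, CDH1 and the keratins KRT8, KRT18 and KRT19 were well expressed there. HT29 is generally known to express these 4 genes. The libraries are called HT29 as labelled, the identity of the cells was not tested, and this bears on every HT29 value and every comparison of the lines. The summed FPKM of the 10 was 3140.0 and 3588.1 in HT29 NC and si2 and 8167.8 and 10106.9 in LIM1215, a sum carried by the keratins. The median log2 ratio of the 10 with si2 was −0.02 in HT29, where EPCAM, CDH1, CDX2, VIL1 and LGALS4 were lower, and 0.33 in LIM1215, where all 10 were higher. In such bulk libraries, fewer cells of a type and less RNA per cell cannot be told apart. Markers of endothelial and neural cells were all under 1 in all libraries. Among the 7 fibroblast markers only COL1A1 reached 1, with 4.83 to 17.6. Among the 6 immune markers, PTPRC and CD3E were listed at 0 in all libraries, CD68 had 6.22 and 9.82 in HT29 and 58.1 and 72.2 in LIM1215, and LYZ had no more than 2.13. The part of these markers in the results was not tested.

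MET was higher with si2 in both lines and had the largest ratio of the 32 receptor tyrosine kinases compared in each. The gene MET (ENSG00000105976) occupies bases 116672196 to 116798377 of chromosome 7, plus strand, in GENCODE release 44 on GRCh38; positions below are from the same annotation. Its FPKM was 33.4 in HT29 NC, 96.6 in HT29 si2, 15.0 in LIM1215 NC and 40.5 in LIM1215 si2. Both si2 libraries lay above both NC libraries, and the lower si2 value, that of LIM1215, was only modestly above the HT29 control. The fold was 2.89 in HT29 (counting interval 2.8 to 2.99, log2 ratio 1.5) and 2.70 in LIM1215 (2.55 to 2.84, log2 ratio 1.37). Estimated fragments of MET numbered 4694 in HT29 NC, 13778 in HT29 si2, 1797 in LIM1215 NC and 5437 in LIM1215 si2. As deposited, the LIM1215 fold was 0.932 times the HT29 fold (0.876 to 0.993), from a lower starting level. Both rescalings of the libraries lowered the HT29 ratio of MET, so the size of this gap between the lines depended on scaling. Between the controls, MET was at 0.450 times the HT29 level in LIM1215 (0.426 to 0.475, log2 ratio −1.10). No other gene of the annotation overlapped MET.

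MET was the 1 member of 10 past 2-fold with si2 in HT29 and the 1 member in LIM1215, and no member was past 2-fold lower. Over all 14803 genes compared (mean FPKM of at least 1, which all 10 members met), 1.85% were called higher and 1.95% lower in HT29, and 1.68% higher and 1.78% lower in LIM1215. Past 2-fold in both lines were 41 genes higher, 0.277% of all, and 69 lower, 0.466%. Since the set was built around MET, nothing is read from these counts. Of the 14803 genes, 94 (0.635%) had a ratio at least that of MET in HT29 and 112 (0.757%) in LIM1215, MET itself included. Among 12295 coding genes these were 14 and 18. MET was picked for this rise, so its rank is a description. The ratio plot of the 10 members shows MET apart from the other 9 in both knockdown panels.

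**Figure D1:**
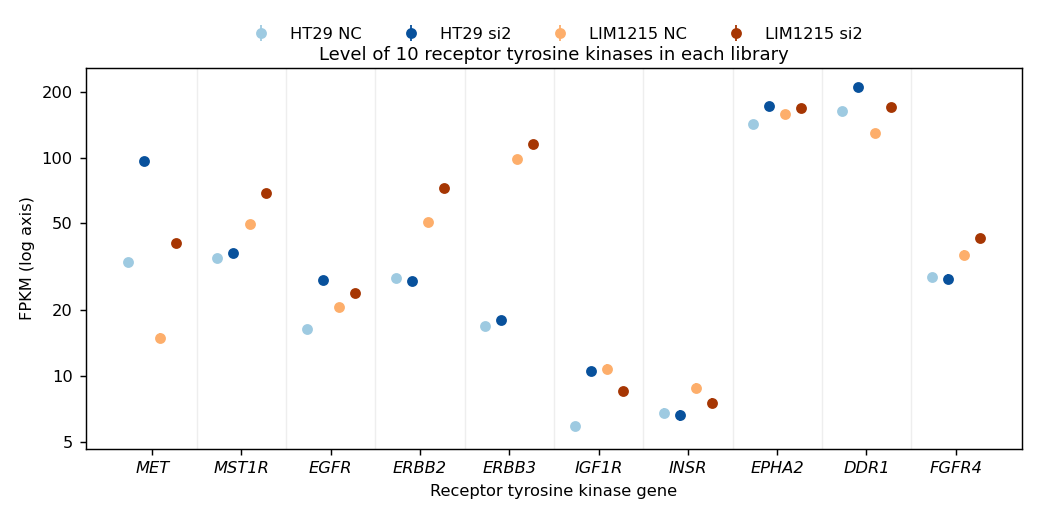
FPKM (log axis) of the 10 receptor tyrosine kinases in the 4 libraries; each point is 1 library, and bars, often smaller than the points, are 95% Poisson intervals of the estimated fragments. MET is at 33.4 and 96.6 in HT29 NC and si2 and at 15.0 and 40.5 in LIM1215, whereas DDR1 and EPHA2 stay above 100 in every library.

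MST1R, the receptor of macrophage-stimulating protein (MST1), did not share the size of the MET difference. Its FPKM was 34.7 in HT29 NC, 36.4 in HT29 si2, 49.5 in LIM1215 NC and 69.0 in LIM1215 si2. The HT29 libraries were nearly level, and both LIM1215 libraries were above both HT29 libraries. The fold with si2 was 1.05 in HT29 (1.0 to 1.10, log2 ratio 0.07) and 1.39 in LIM1215 (1.34 to 1.45, log2 ratio 0.47). With the libraries scaled to an equal sum of FPKM, the HT29 ratio was −0.01. MST1R (ENSG00000164078, chromosome 3, 49887002 to 49903873, minus strand) overlaps 2 unnamed antisense noncoding genes with an FPKM of at most 4.02, and whether fragments were counted by strand is not given in the sources used here.

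Among the ERBB receptors, EGFR differed mainly in HT29, ERBB2 in LIM1215, and ERBB3 between the lines. EGFR (ENSG00000146648, chromosome 7, 55019017 to 55211628, plus strand), the receptor of EGF, TGFA, AREG and EREG, had an FPKM of 16.5 in HT29 NC, 27.5 in HT29 si2, 20.8 in LIM1215 NC and 23.9 in LIM1215 si2. The HT29 control was the lowest of the 4 libraries and the HT29 knockdown the highest. The fold with si2 was 1.66 in HT29 (1.59 to 1.74, log2 ratio 0.70) and 1.15 in LIM1215 (1.10 to 1.2, log2 ratio 0.19), both short of 2-fold.

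ERBB2 (ENSG00000141736, chromosome 17, 39687914 to 39730426, plus strand) has no ligand of its own and serves as the preferred partner of the other ERBB receptors. Its FPKM was 28.2 in HT29 NC, 27.1 in HT29 si2, 50.5 in LIM1215 NC and 72.3 in LIM1215 si2. Both LIM1215 libraries were above both HT29 libraries, and the si2 library was the higher of the pair only in LIM1215. The fold with si2 was 0.961 in HT29 (0.910 to 1.02, which includes 1) and 1.43 in LIM1215 (1.37 to 1.49), with log2 ratios of −0.06 and 0.51. ERBB2 overlaps MIEN1 and PGAP3 on the opposite strand, and MIEN1 had an FPKM of 43.8 to 54.3, so shared fragments may enter either gene.

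ERBB3 (ENSG00000065361, chromosome 12, 56076799 to 56103505, plus strand), a neuregulin receptor with little kinase activity that signals through its partners, showed the largest difference between the lines of all members. Its FPKM was 16.9 in HT29 NC, 18.1 in HT29 si2, 98.9 in LIM1215 NC and 115 in LIM1215 si2, so the lines were far apart and the siRNA libraries of each line close together. The control level in LIM1215 was 5.84 times that in HT29 (5.57 to 6.14, log2 ratio 2.48). The fold with si2 was 1.07 in HT29 (1.01 to 1.14) and 1.16 in LIM1215 (1.13 to 1.19). ERBB3 overlaps an unnamed coding gene that was listed at 43.3 in HT29 NC and at 0 in the other 3 libraries, and the part of shared fragments in the ERBB3 values was not tested.

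The insulin receptor family split. IGF1R (ENSG00000140443, chromosome 15, 98648539 to 98964530, plus strand), which binds IGF1 and IGF2, had an FPKM of 5.88 in HT29 NC, 10.6 in HT29 si2, 10.8 in LIM1215 NC and 8.52 in LIM1215 si2. The HT29 control stood lowest, and HT29 si2 was at about the level of the LIM1215 control. The fold with si2 was 1.8 in HT29 (1.69 to 1.92, log2 ratio 0.75) and 0.787 in LIM1215 (0.741 to 0.835, log2 ratio −0.31). The LIM1215 fold was 0.438 times the HT29 fold (0.402 to 0.477), the member whose ratio differed most between the lines.

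INSR (ENSG00000171105, chromosome 19, 7112255 to 7294414, minus strand) had an FPKM of 6.79 in HT29 NC, 6.61 in HT29 si2, 8.79 in LIM1215 NC and 7.55 in LIM1215 si2. It was the only member lower with si2 in both lines, by little: the fold was 0.975 in HT29 (0.902 to 1.05, which includes 1) and 0.859 in LIM1215 (0.798 to 0.925). IGF1R and INSR were the least abundant members in every library, and their order was reversed in HT29 NC, where INSR was above IGF1R.

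DDR1 and EPHA2 were the most abundant members in every library. DDR1 (ENSG00000204580, chromosome 6, 30876421 to 30900156, plus strand), the epithelial collagen receptor, had an FPKM of 164 in HT29 NC, 211 in HT29 si2, 130 in LIM1215 NC and 170 in LIM1215 si2. As deposited, its fold with si2 was alike in both lines, 1.29 in HT29 (1.26 to 1.32) and 1.31 in LIM1215 (1.27 to 1.34). The ratio of these folds had a counting interval of 0.983 to 1.06, which includes 1. This likeness depended on scaling. With a common sum the log2 ratios were 0.28 (HT29) and 0.38 (LIM1215), and with a common upper quartile 0.29 and 0.41. Like MET, DDR1 was lower in the LIM1215 than in the HT29 control, at 0.792 times (0.771 to 0.814), while the other 8 members were higher there. For EPHA2 that direction turned under both rescalings of the libraries.

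EPHA2 (ENSG00000142627, chromosome 1, 16124337 to 16156069, minus strand), a receptor of A-type ephrins on neighbouring cells, had an FPKM of 143 in HT29 NC, 172 in HT29 si2, 159 in LIM1215 NC and 169 in LIM1215 si2. All 4 libraries lay close together, with HT29 NC the lowest. Its fold with si2 was 1.2 in HT29 (1.17 to 1.23) and 1.06 in LIM1215 (1.04 to 1.09). Between the controls its log2 ratio of 0.15 turned to −0.03 under either rescaling of the libraries.

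FGFR4 (ENSG00000160867, chromosome 5, 177086905 to 177098144, plus strand) had an FPKM of 28.3 in HT29 NC, 27.8 in HT29 si2, 36.0 in LIM1215 NC and 42.9 in LIM1215 si2. The HT29 libraries were level and the LIM1215 libraries both higher. The fold with si2 was 0.982 in HT29 (0.919 to 1.05, which includes 1) and 1.19 in LIM1215 (1.12 to 1.27).

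**Figure D2:**
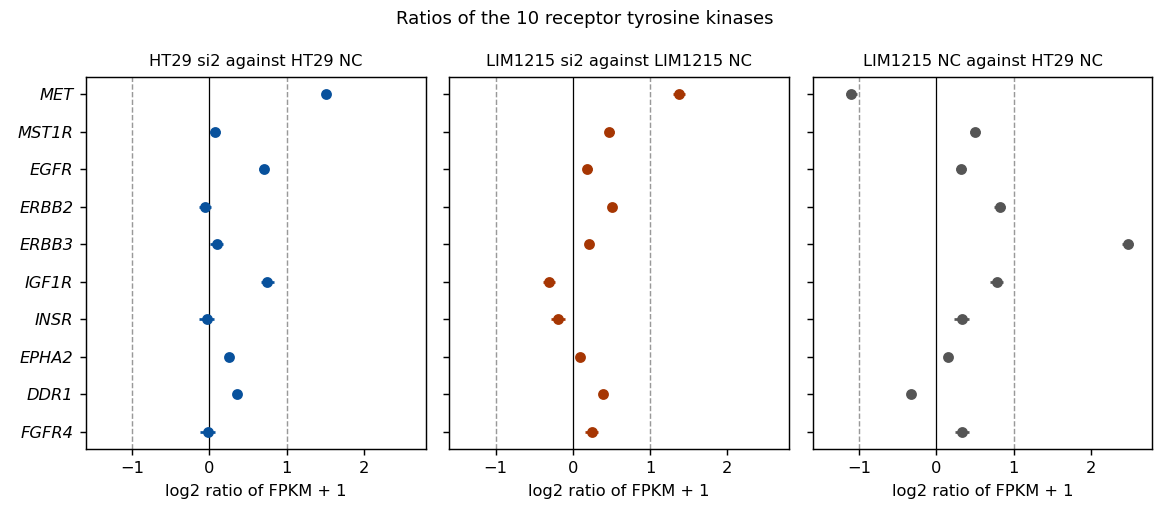
Log2 ratios of FPKM plus 1 for the 10 members in 3 comparisons; points are ratios of 2 libraries, bars are 95% counting intervals and dashed lines mark 2-fold. With si2, MET alone is past the line, at 1.5 in HT29 and 1.37 in LIM1215; between the controls, ERBB3 at 2.48 and MET at −1.10 are past it.

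Taking direction alone, 6 members were higher with si2 in both lines (MET, MST1R, EGFR, ERBB3, EPHA2 and DDR1, of which MST1R in HT29 depended on the scaling), INSR was lower in both, and 3 went opposite ways (ERBB2, IGF1R and FGFR4). Of all genes compared, 36.0% were higher in both and 28.0% lower in both. The median log2 ratio of the members was 0.18 in HT29 and 0.23 in LIM1215, beside 0.04 and 0.02 over all genes. At a lower threshold of 1.5-fold, 3 members were higher in HT29 (MET, IGF1R and EGFR), where 7.87% of all genes were, and MET alone in LIM1215, where 6.63% were. None was lower by 1.5-fold in either line, where 6.91% of all genes were in HT29 and 6.18% in LIM1215.

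In HT29 the order was DDR1, EPHA2, MST1R, MET, FGFR4, ERBB2, ERBB3, EGFR, INSR and IGF1R in the control, and the counting intervals of the levels overlapped for the neighbours MST1R and MET, FGFR4 and ERBB2, and ERBB3 and EGFR. In HT29 si2 the order was DDR1, EPHA2, MET, MST1R, FGFR4, EGFR, ERBB2, ERBB3, IGF1R and INSR. MET moved 1 place to the third, clear of both neighbours, EGFR moved 2 places, to a level that overlapped those of FGFR4 and ERBB2, and IGF1R and INSR changed places with no overlap in either library. In LIM1215, ERBB3 took the third place in both libraries, and MET went from the eighth place to the seventh, where its interval overlapped that of FGFR4. MET made up 6.99% of the summed FPKM of the 10 members in HT29 NC, 15.2% in HT29 si2, 2.59% in LIM1215 NC and 5.63% in LIM1215 si2. The sum itself was 478 in HT29 NC and 634 in HT29 si2, and 580 and 719 in the LIM1215 libraries, and MET gave 40.7% of that difference in HT29 and 18.3% in LIM1215.

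Between the control libraries, 1 of the 10 members was past 2-fold higher in LIM1215 (ERBB3) and 1 lower (MET), where 12.0% of all genes were higher and 7.42% lower. The split of all genes depended on scaling: 1773 were higher and 1099 lower as deposited, against 1489 and 1452 with FPKM rescaled to a common sum, which moved the median of all genes by −0.16. ERBB3 and MET stayed past 2-fold under that scaling, and with a pseudocount of 5 MET came to −0.94, short of it. At 1.5-fold, ERBB2 and IGF1R were also higher in LIM1215, by 1.79-fold (1.71 to 1.89) and 1.84-fold (1.73 to 1.97), where 21.8% of all genes were higher and 16.3% lower. These controls also serve in the knockdown comparisons, so the comparisons are not independent.

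The 10 members were then set beside the other 48 of 58 listed human receptor tyrosine kinases, of which 22 had a mean FPKM of at least 1. AXL, a receptor of the vitamin K-dependent ligand GAS6 that is often raised in mesenchymal-like and drug-resistant cells, was the only one of these 22 past 2-fold with si2, and in HT29 alone. There, 1.85% of all genes were called higher. Its FPKM was 31.5 in HT29 NC, 67.6 in HT29 si2, 24.9 in LIM1215 NC and 27.8 in LIM1215 si2, so HT29 si2 stood apart from the other 3 libraries. With si2 the fold of AXL was 2.15 in HT29 (2.06 to 2.24) and 1.12 in LIM1215 (1.05 to 1.18). The HT29 log2 ratio of AXL was 1.08, and 0.99 with a pseudocount of 5, just short of 2-fold. The most abundant of the others were PTK7, a Wnt coreceptor with an inactive kinase domain, at 55.6, 77.4, 41.8 and 48.4 in HT29 NC, HT29 si2, LIM1215 NC and LIM1215 si2, and FGFR1, at 56.6, 56.1, 37.2 and 38.2 in the same order. None of the 32 compared was past 2-fold lower on the log2 scale with the pseudocount. As plain ratios, and chosen after their values were seen, EPHB6 was at 0.482 (0.318 to 0.722) in LIM1215, from an FPKM of 1.05 and 0.507. PDGFRB, too low to be compared, was at 0.139 (0.0579 to 0.297) in HT29 and 0.205 (0.125 to 0.328) in LIM1215, with an FPKM of no more than 0.993. The median log2 ratio of the 22 was 0.08 in HT29 and 0.14 in LIM1215, the latter −0.02 with no filter on low values.

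**Figure D3:**
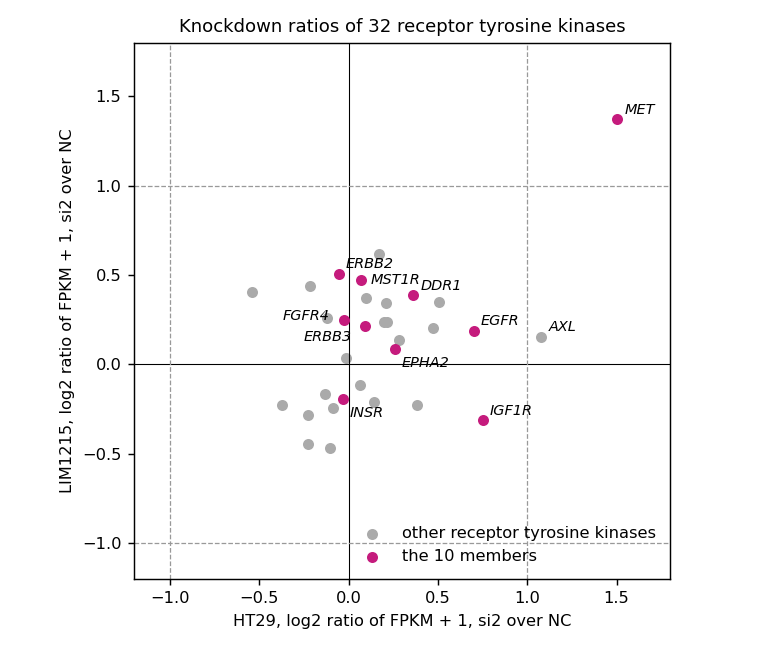
Log2 ratios of FPKM plus 1, si2 over NC, of the 32 receptor tyrosine kinases with a mean FPKM of at least 1, HT29 on the x axis and LIM1215 on the y axis; each point is a gene and dashed lines mark 2-fold. MET (1.5 and 1.37) is the one point past 2-fold on both axes, and AXL (1.08 and 0.15) is past it on the HT29 axis.

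Ligands were examined next. Of 29 listed ligand genes 18 had a mean FPKM of at least 1, and EFNA3, an A-type ephrin that EPHA2 can bind, was the only one called past 2-fold with si2, in LIM1215. The share of all genes called higher there was 1.68%. Its FPKM was 8.30 in HT29 NC, 16.4 in HT29 si2, 10.6 in LIM1215 NC and 26 in LIM1215 si2. The si2 libraries were the 2 highest, with folds of 1.98 in HT29 (1.72 to 2.30) and 2.44 in LIM1215 (2.14 to 2.78). With a pseudocount of 5 the LIM1215 log2 ratio of EFNA3 was 0.99, just short of 2-fold. EFNA3 shares its place with a read-through gene listed at no more than 0.897. Low ligand genes, chosen after their values were seen, had larger plain ratios that the pseudocount kept from a call. NRG1, a ligand of ERBB3, had an FPKM of 0.956 and 2.62 in LIM1215, a fold of 2.74 (2.34 to 3.23), and 3.51 and 3.39 in HT29. EFNA5 had 1.64 and 0.626 in HT29, a fold of 0.381 (0.286 to 0.508), and 3.61 and 4.09 in LIM1215. COL4A2 had 0.346 and 0.00762 in HT29 and 13.7 and 12.2 in LIM1215. The remaining A-type ephrins, also chosen after their values were seen, did not share the rise of EFNA3. EFNA1 had folds of 0.662 (0.588 to 0.746) in HT29 and 0.722 (0.644 to 0.808) in LIM1215. EFNA2 had 0.894 (0.71 to 1.13) and 0.511 (0.361 to 0.702) in the same order. The intervals of EFNA4 included 1 in both lines. The EGFR ligands EREG and AREG, the most abundant of the list, were lower with si2 in both lines, short of 2-fold. EREG had an FPKM of 196 and 142 in HT29 NC and si2 and of 53.8 and 36.6 in LIM1215, and AREG had 149 and 103 in HT29 and 106 and 56.3 in LIM1215. The other EGFR ligands, chosen after their values were seen, differed in direction. HBEGF was higher in both lines, with folds of 1.47 (1.25 to 1.72) in HT29 and 1.55 (1.42 to 1.69) in LIM1215. TGFA had folds of 1.1 and 0.838 and BTC of 0.786 and 0.67 in the same order. EGF, below the filter, had an FPKM of 0.898 and 0.834 in HT29 and 0.378 and 1.05 in LIM1215. EPGN had no more than 0.542. The median of the 18 ligands was −0.13 in HT29 and −0.02 in LIM1215, the latter just above 0 with a common upper quartile.

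In addition, 4 genes tied to single members were picked after their values were seen. HGF, the ligand of MET, was listed at 0 in both HT29 libraries and had an FPKM of 6.41 in LIM1215 NC and 5.04 in LIM1215 si2. MST1, the ligand of MST1R, had 5.08 and 6.90 in HT29 NC and si2 and 4.75 and 6.81 in LIM1215. FGF19, the enterohepatic hormone that signals through FGFR4, had 24.8 and 18.3 in HT29 and 8.07 and 4.15 in LIM1215. KLB, the coreceptor FGF19 needs, had no more than 0.0937 in any library.

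Genes that process receptors and ligands had medians of 0.03 in HT29, below 0 when centred on all genes, and 0.17 in LIM1215. Of 13 listed, 11 had a mean FPKM of at least 1, and PCSK7, a proprotein convertase of the furin family, was the only one past 2-fold, in HT29. The share of all genes called higher there was 1.85%. Its FPKM was 9.74 in HT29 NC, 21.6 in HT29 si2, 30.3 in LIM1215 NC and 53.6 in LIM1215 si2, a fold of 2.21 in HT29 (2.04 to 2.41) and 1.77 in LIM1215 (1.68 to 1.86). The HT29 log2 ratio of PCSK7 was 1.07, and 0.85 with a pseudocount of 5, and it was marginally below 1 with a common sum. PCSK7 overlaps TAGLN on the opposite strand, which had 3.93 and 8.68 in HT29 and 13.0 and 26.4 in LIM1215 (NC then si2), and it too was higher with si2. Unless the counting used strand, reads from the stretch that both genes cover cannot be told apart. SPINT2, an inhibitor of the proteases that activate HGF, had a fold of 1.32 in HT29 (1.29 to 1.36) and 1.12 in LIM1215 (1.09 to 1.15), and the sheddase ADAM10 0.976 (0.958 to 0.994) and 0.925 (0.910 to 0.941).

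No coreceptor or partner was past 2-fold among the 8 of 10 with a mean FPKM of at least 1, but their median was 0.41 in HT29 and 0.25 in LIM1215. Over all genes, 1.85% were called higher in HT29 and 1.68% in LIM1215. CD44, whose variant forms present HGF to MET, had an FPKM of 322 and 500 in HT29 and 406 and 627 in LIM1215, a fold of 1.55 (1.53 to 1.57) and 1.54 (1.52 to 1.56). CAV1, a caveolar scaffold, had 325 and 496 in HT29 and 107 and 127 in LIM1215. Both were higher with si2 in both lines, as deposited CD44 by nearly the same proportion and CAV1 less in LIM1215. With a common upper quartile, the log2 ratios of CD44 were 0.56 in HT29 and 0.65 in LIM1215.

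Among 34 adaptors and proximal signalling genes, all above the filter, 1 was called past 2-fold higher in each line and none lower. Over all genes, 1.85% were called higher and 1.95% lower in HT29, and 1.68% and 1.78% in LIM1215. Nothing is read from counts this small. Just outside the call in LIM1215, and chosen after its values were seen, CRKL had an FPKM of 29.7 and 14.8, a fold of 0.499 (0.468 to 0.531). CRK, an SH2 adaptor downstream of MET and GAB1, had an FPKM of 26.3 and 58.9 in HT29 and 32 and 53.6 in LIM1215, a fold of 2.24 (2.12 to 2.36) and 1.67 (1.59 to 1.76). PIK3R3, a regulatory subunit of PI3K, had 1.69 and 2.12 in HT29 and 3.42 and 8.0 in LIM1215, a fold of 1.26 (1.04 to 1.52) and 2.34 (2.06 to 2.66). With a pseudocount of 5, CRK stayed past 2-fold in HT29, and PIK3R3 was at 0.63 on the log2 scale in LIM1215, short of it. The most abundant of the list, MAP2K2 and AKT2, differed little or modestly: MAP2K2 had log2 ratios of 0.45 (HT29) and 0.25 (LIM1215), and AKT2 of −0.01 and 0.11. The median of the list was 0.05 in HT29, which was below 0 under both rescalings, and 0.19 in LIM1215.

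None of the 24 genes that inhibit or degrade receptors was called past 2-fold in either line, with medians of 0.21 in HT29 and 0.06 in LIM1215. The shares of all genes called were also small, 1.85% higher and 1.95% lower in HT29, and 1.68% and 1.78% in LIM1215. GRB14, an adaptor that inhibits the insulin receptor, chosen after its values were seen, had an FPKM of 0.573 and 2.11 in LIM1215, a plain fold of 3.68 (2.31 to 6.08) and a log2 ratio of 0.98 with the pseudocount, and 3.79 and 2.49 in HT29. ERRFI1, a direct inhibitor of EGFR kinase, had an FPKM of 405 and 460 in HT29 and 116 and 121 in LIM1215, and HGS, which sorts receptors to lysosomes, 137 and 143 in HT29, an order that reversed under both rescalings, and 107 and 113 in LIM1215. Of 5 transcription factors known to act on MET, none was past 2-fold and all 5 had ratios above 0 in both lines, as had 36.0% of all genes compared. HIF1A had 120 and 165 in HT29 and 71.9 and 73.6 in LIM1215, and ETS2 had 12.0 and 16.4 in HT29 and 51.1 and 70.8 in LIM1215. MACC1, a transcriptional regulator of MET first described in colon cancer and picked here after its values were seen, had 3.62 and 3.86 in HT29 and 7.73 and 10.2 in LIM1215. The counting interval of the fold included 1 for HIF1A in LIM1215 (0.983 to 1.06) and for MACC1 in HT29 (0.959 to 1.18).

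**Figure D4:**
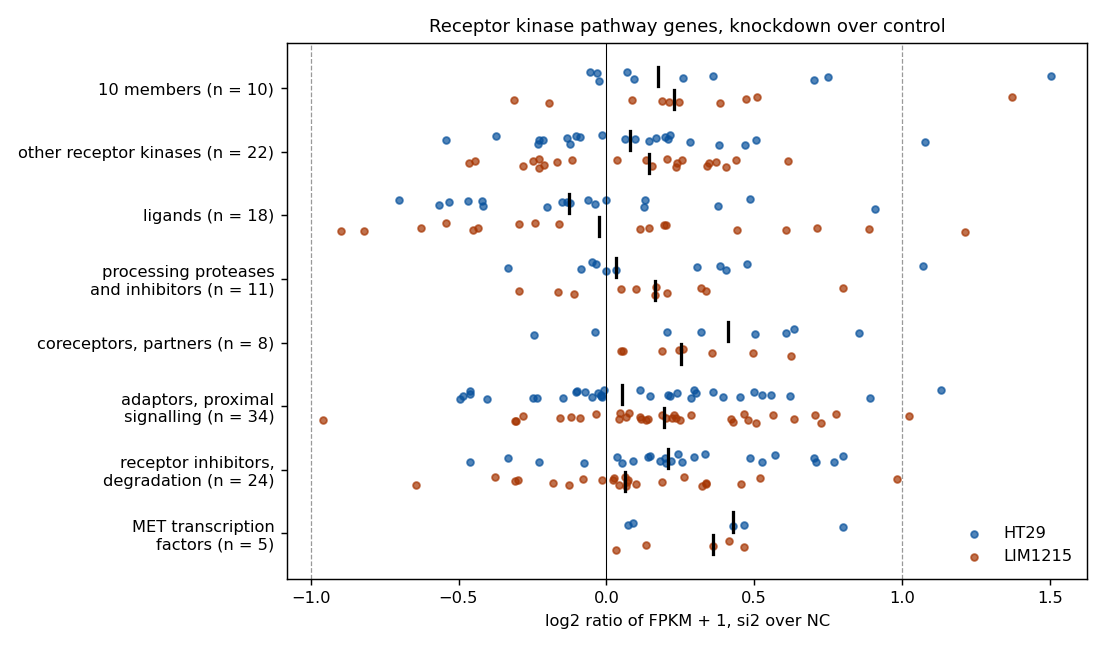
Log2 ratios of FPKM plus 1, si2 over NC, for genes with a mean FPKM of at least 1 in each list; each point is a gene, black bars are medians and dashed lines mark 2-fold. Outside the 10 members, the points past 2-fold are AXL, PCSK7 and CRK in HT29 and EFNA3 and PIK3R3 in LIM1215.

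The genes whose pattern over the 4 libraries was closest to MET were PIP4K2A, ZSWIM4, ELK3, ARRDC3 and DNMT3B, by Euclidean distance of log2(FPKM + 1) centred on each gene's mean, among 12287 other coding genes. The distances were 0.386, 0.407, 0.410, 0.436 and 0.439 in that order. PIP4K2A, a lipid kinase, had an FPKM of 19.5 and 47.7 in HT29 and 10.6 and 24.8 in LIM1215. ELK3, an ETS family factor, had 21.2 and 51.1 in HT29 and 11.8 and 25.5 in LIM1215. ARRDC3, an alpha-arrestin, had 31.0 and 91.3 in HT29 and 13.9 and 26.4 in LIM1215. ZSWIM4 had 5.32 and 12.6 in HT29 and 2.12 and 5.14 in LIM1215, and DNMT3B, a DNA methyltransferase, 7.61 and 18.3 in HT29 and 3.25 and 6.69 in LIM1215. Each was higher with si2 in both lines and lower in the LIM1215 than in the HT29 control, a direction that their selection for likeness to MET fixes. With 4 libraries, the measure has few values to tell patterns apart.

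None of the coding genes next to MET shared the size of its ratios in both lines. Of 7 others that reach into the stretch from 500 kb before the start to 500 kb after the end of MET, 6 had a mean FPKM of at least 1 and none was past 2-fold with si2 in either line. Few genes were called anywhere, 1.85% higher and 1.95% lower in HT29, and 1.68% and 1.78% in LIM1215. The start of CAV1 lies at −147.2 kb from that of MET, with log2 ratios of 0.61 (HT29) and 0.25 (LIM1215). CAV2, at −384.8 kb, had 0.58 and −0.11, and TES, at −461.7 kb, −0.05 and −0.39. On the other side, CAPZA2, at 138.9 kb, had −0.21 and 0.16, ST7, at 281.0 kb, 0.11 and −0.41, and the chloride channel gene CFTR, at 614.9 kb, 0.59 and −0.75, the HT29 value from an FPKM of 0.218 and 0.834. As a plain ratio, the HT29 fold of CFTR was 3.83 (2.49 to 6.09), larger than that of MET, and the pseudocount kept it from a call. With a pseudocount of 0.1 its HT29 log2 ratio was 1.55. WNT2 had an FPKM of at most 0.0592 and was not compared. CAV1 and CAV2 were, like MET, lower in the LIM1215 than in the HT29 control, with log2 ratios of −1.59 and −1.06.

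**Figure D5:**
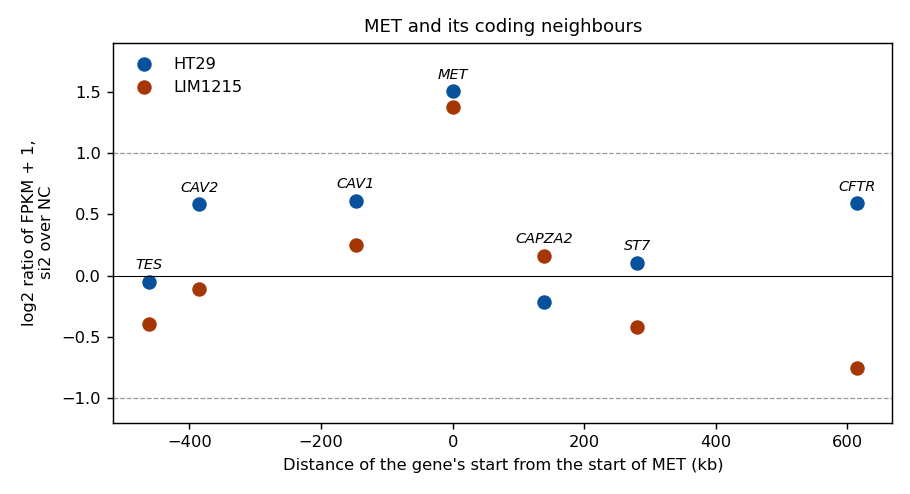
Log2 ratios of FPKM plus 1, si2 over NC, of MET and the 6 coding genes with a mean FPKM of at least 1 that reach within 500 kb of either end of it, against the distance of each gene's start from the start of MET in kb; dashed lines mark 2-fold. MET, at 1.5 and 1.37, is the only gene plotted past 2-fold.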

How the data were processed

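The labels' protocols name the miRNeasy Micro kit for RNA and TruSeq Stranded mRNA for library preparation. The authors deposited 1 table of FPKM per library. The submitters' processing notes name HISAT2 2.1.0, SAMtools 1.20, Cufflinks 2.2.1 and Cuffdiff on GRCh38. The annotation, the strand setting and the treatment of shared fragments are not given in the sources used here. Where FPKM is scaled to the library's total, 1 abundant gene can shift the others. How these libraries were scaled was not tested. Symbols for 56550 of 60658 rows, positions and canonical transcript lengths came from GENCODE release 44 (GRCh38), and promoters from RefSeq.

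Groups followed the sample titles. Depth was estimated from the steps of low values in genes with 1 transcript of at least 500 bases: 79.6% to 82.0% of these lay within 0.03 of whole fragments. Fragments per gene use the canonical transcript and are estimates. Log2 ratios of FPKM plus 1 were taken for 14803 genes with a mean FPKM of at least 1, with no p-value, as no group had a replicate and the members were picked from these contrasts. Scripts (Python 3.11.15, pandas 2.3.3, scipy 1.17.1) were tested on simulated data.

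The members, lists and thresholds were chosen with earlier results of these data known. Named genes were the members, the target, list genes past 2-fold in a knockdown comparison, the 2 most abundant of each list, the 5 genes nearest to MET in pattern and coding genes that reach within 500 kb of either end of MET, with exceptions marked in the text. Alternatives were pseudocounts of 0.1 and 5, 3 scalings, 2 filters, a 1.5-fold threshold and coding genes only. A planned comparison of protein sequences was not made here.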

Additional observations from a re-analysis of the deposited data

Results flagged for a closer look

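With 1 library per group, differences between the lines were not tested. The values below had log2 ratios, si2 over NC, of opposite sign in HT29 and LIM1215. Among the members, the LIM1215 ratio minus the HT29 ratio was −1.06 for IGF1R (0.75 in HT29 and −0.31 in LIM1215), 0.56 for ERBB2 (−0.06 and 0.51) and 0.27 for FGFR4 (−0.02 and 0.25). The counting interval of the HT29 fold included 1 for ERBB2 and FGFR4 and lay above 1 for IGF1R, at 1.69 to 1.92. Around MET, the difference was −1.34 for CFTR, −0.69 for CAV2, −0.52 for ST7 and 0.38 for CAPZA2. It was 0.12 for AKT2 and 0.05 for FGFR1, where the HT29 ratio was −0.01 in both genes. For FGFR1 the counting intervals of both folds included 1 (0.957 to 1.02 in HT29 and 0.982 to 1.07 in LIM1215). Among genes picked after their values were seen, the difference was 1.44 for GRB14 (−0.46 and 0.98), 0.93 for NRG1 (−0.04 and 0.89) and 0.84 for EFNA5 (−0.70 and 0.14). The interval included 1 for NRG1 in HT29 and for EFNA5 in LIM1215.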

How the results depend on the processing

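MET stayed past 2-fold in both lines under the 5 alternatives of pseudocount and scaling. Its log2 ratio in HT29 was 1.40 with a pseudocount of 5, 1.43 with FPKM rescaled to a common sum and 1.44 with a common upper quartile, and in LIM1215 it was 1.18 with a pseudocount of 5. At 1.5-fold, 3 members were called in HT29 and 4 between the controls, and with a pseudocount of 5 only 1 between the controls, as MET came to −0.94. Over all genes, calls in HT29 (562), LIM1215 (512) and between the controls (2872) depended on pseudocount, filter and threshold. HT29 had 1128 calls with a pseudocount of 0.1, 181 with 5, 272 at a mean FPKM of at least 5, 2188 at 1.5-fold and 273 among coding genes. LIM1215 had 984, 156, 202, 1897 and 202, and 770 with no filter. The controls had 1300 with a pseudocount of 5, 1670 at a mean FPKM of at least 5 and 5629 at 1.5-fold. Of 150 member ratios under alternatives, 46 left their counting interval and 3 changed sign, those of MST1R in HT29 and of EPHA2 between the controls under both rescalings. A fit over both lines with line as a block, on 1 residual degree of freedom, was not run. Depth is estimated, and variation between cultures was not measured.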
